A study of Homo sapiens with 12 samples.

Results

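The genes *INSR*, *IGF1R*, *IGF2R*, *IRS1* and *IRS2*, which encode the receptors of insulin and the insulin-like growth factors (IGFs) and their principal adaptors, were examined in synovial sarcoma (SS) cells treated with the pan-PI3K inhibitor ZSTK474. All probe sets whose annotation gives exactly 1 gene symbol, and that symbol is 1 of these 5, were taken. They were 18 of 54675 probe sets, for 5 of the 19775 genes that are the only symbol of a probe set. *INSR* and *IGF1R* had 5 probe sets each, *IGF2R* and *IRS1* 3 each, and *IRS2* 2. Cells of the lines SYO-1, Aska-SS, Fuji and Yamato-SS were cultured in RPMI-1640 with fetal bovine serum and exposed for 24 h to 0 µM, 0.3 µM or 3 µM ZSTK474. Every line carries the SS18-SSX fusion that defines the disease, with *SSX1* as the partner in Aska-SS and Yamato-SS and *SSX2* in SYO-1 and Fuji. RNA of each line and dose was hybridised to 1 Affymetrix U133 Plus 2.0 array, 12 arrays in all, so the 4 cell lines were the replicates and no change within 1 line had a replicate of its own. Each line is a single established culture. Doses were compared within lines, so p-values rest on how the dose changes differed between these 4 lines and not on the spread of their levels. That spread was 1 estimate per probe set, pooled over the 12 arrays and 3 doses and moderated across probe sets. A standard error (SE) given here is therefore not the spread of the 4 line changes of 1 comparison.

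Insulin and IGF receptors are tyrosine kinases that reach PI3K mainly through the docking proteins IRS1 and IRS2, which recruit the lipid kinase to the membrane. In well-studied tissues such as liver and muscle, active PI3K and Akt keep FOXO transcription factors out of the nucleus, and FOXO factors drive transcription of *INSR* and *IRS2* when the pathway is off. IGF2R, the cation-independent mannose 6-phosphate receptor, has no kinase domain, carries lysosomal enzymes to endosomes and removes an IGF ligand from the cell surface. The comparison across doses asked how the expression of these receptors and adaptors stood under blockade of the kinase they feed.

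The promoters of the 5 genes were taken from RefSeq on GRCh38.p14 because members that move together may be read beside their start site sequence. All 5 genes matched the promoter table, which runs from 250 bases before to 50 bases after each start site. The bases before the start site are printed, read 5′ to 3′ on the strand of the gene, for *INSR* (chr19:7294415-7294664, minus strand), *IGF2R* (chr6:159968832-159969081, plus strand) and *IRS2* (chr13:109786584-109786833, minus strand), which differ in the motifs they hold. Capitals mark every match of the motifs searched on both strands.
INSR: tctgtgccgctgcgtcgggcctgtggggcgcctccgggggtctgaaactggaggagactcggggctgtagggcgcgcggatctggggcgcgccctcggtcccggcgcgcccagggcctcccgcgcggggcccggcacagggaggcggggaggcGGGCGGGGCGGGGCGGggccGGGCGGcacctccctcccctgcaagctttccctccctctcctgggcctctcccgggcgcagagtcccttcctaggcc
IGF2R: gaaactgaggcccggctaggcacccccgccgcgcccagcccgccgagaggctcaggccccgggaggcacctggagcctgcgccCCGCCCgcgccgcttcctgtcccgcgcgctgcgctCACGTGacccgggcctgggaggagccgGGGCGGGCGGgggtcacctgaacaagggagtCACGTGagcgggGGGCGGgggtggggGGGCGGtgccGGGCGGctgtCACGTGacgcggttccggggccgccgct
IRS2: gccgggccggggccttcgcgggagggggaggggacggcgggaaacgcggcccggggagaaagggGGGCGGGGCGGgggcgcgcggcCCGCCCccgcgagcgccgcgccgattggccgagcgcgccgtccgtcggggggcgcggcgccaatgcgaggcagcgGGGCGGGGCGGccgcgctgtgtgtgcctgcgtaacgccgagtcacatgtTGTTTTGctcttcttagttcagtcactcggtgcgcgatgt
The motifs were GTAAACA, the core of a FOXO site, CAAAACA, the core of the insulin response element that FOXO factors also bind, the E-box CACGTG, the GC box GGGCGG of SP1-type factors and the cAMP response element TGACGTCA. GC boxes could overlap one another. In windows of 300 bases, GTAAACA was in none of the 5 promoters and in 3.42% of all 35116 promoters. *IRS2* held the single CAAAACA match of the members, on the opposite strand 40 bases before the start site, and 4.92% of all promoters held this motif. The E-box was found 3 times in *IGF2R*, at 132, 74 and 28 bases before the start site, and 1 time in *IRS1* (chr2:226799771-226800070, minus strand), at base 36 after it, against 7.26% of all promoters with a match. Every member held GC boxes, 4 in *INSR*, 2 in *IGF1R* (chr15:98648289-98648588, plus strand), 6 in *IGF2R*, 4 in *IRS1* and 5 in *IRS2*, as did 45.0% of all promoters. TGACGTCA was in none of the 5 and in 1.85% of all promoters.

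The arrays had median deposited signals of 60.1 to 85.3, and their number limits the precision. *TLE1*, a nuclear corepressor used to diagnose SS, had a median normalized signal of 17298, and 6 of 10 SS markers had a probe set past the filter on dim probe sets, *PRAME*, *SSX1*, *BCL2*, *VIM* and *KRT7* with it. None of 5 leukocyte, 3 adipocyte or 2 hepatocyte markers and 1 of 3 endothelial markers (*PECAM1*) had one. On the log2 scale, the 3′ signal of the actin control over its 5′ signal was greater at 3 µM, against 0 µM, by 0.59 in Fuji and by 0.12 to 0.21 in the other 3 lines. For the GAPDH control the same ratio had changes of -0.13 to 0.15. The part of this difference in the results was not tested. Each array measured a whole culture, so the share of cells that express a gene and the RNA per cell cannot be told apart.

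Treatment with 3 µM ZSTK474 was accompanied by higher expression of all 5 genes. Of the 14 probe sets bright enough to be tested, 12 rose at 3 µM against 0 µM, 0 fell and 2 did not pass, with a median log2 change of 0.92. Each gene had at least 1 probe set among the 12. Leaving out Aska-SS gave a count of 8, leaving out SYO-1 9, Fuji 10 and Yamato-SS 13. Over all 27306 probe sets tested, 39.4% passed in the same comparison, 19.6% higher and 19.8% lower, with a median change of 0.00. A probe set passed where its limma p-value, adjusted by the Benjamini-Hochberg method over those 27306 probe sets, was below 0.05. The other 4 probe sets, 3 of *IGF1R* and 1 of *INSR*, lay below the filter and had no test. Of all calls 49.8% were higher with quantile normalization, 59.7% with the deposited signals as they were and 31.2% after centring each array on its median, and the median of all probe sets moved to 0.11 and -0.11 under these alternatives. The member probe sets that passed numbered 13 with the deposited signals and 10 with median centring, all higher. With median centring no *IGF2R* probe set passed, with changes of 0.20, 0.26 and 0.06, so the call for this gene depended on the scaling.

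**Figure D1:**
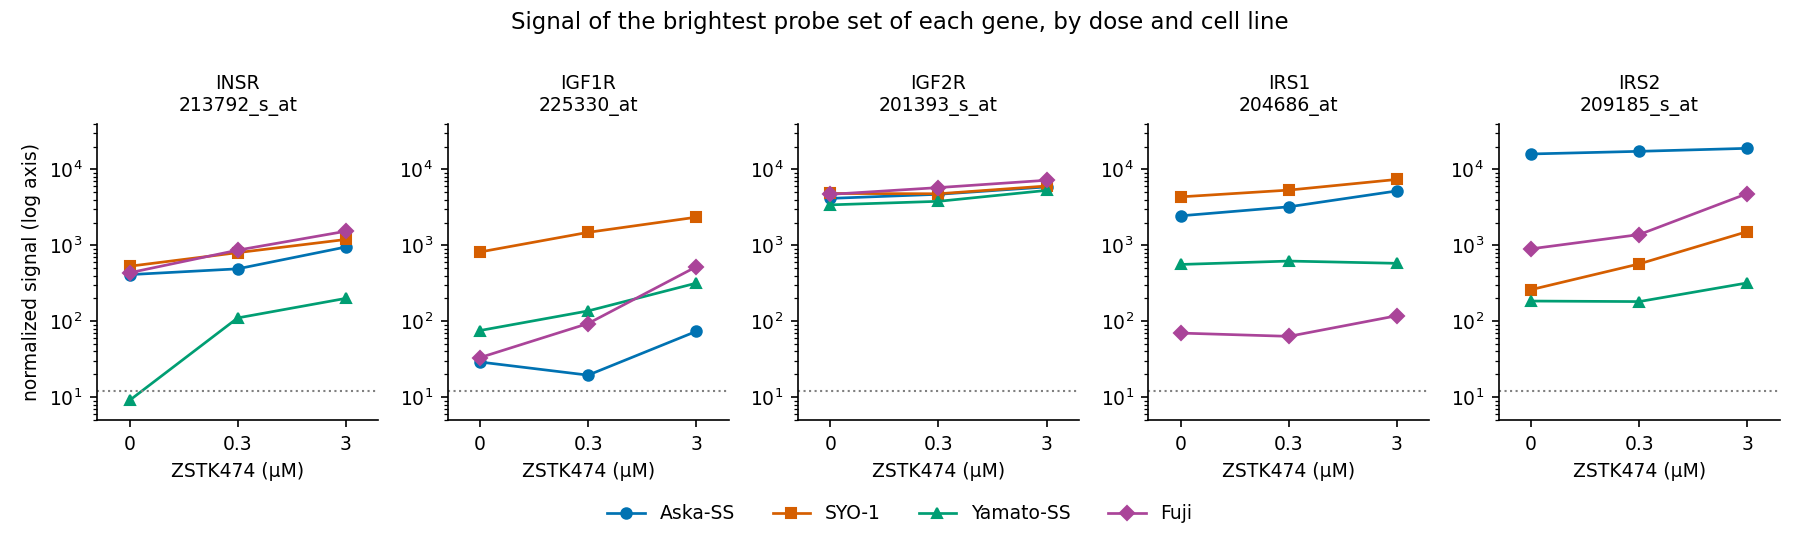
Normalized signal (log axis) of the brightest probe set of each gene at 0, 0.3 and 3 µM ZSTK474, with 1 line and marker shape per cell line and 1 array per point. The dotted line is the floor of 12.1 below which signals have no order. The 4 *IGF2R* curves lie close together between 3421 and 7217, while those of *IRS2* are spread from 182 to 19006.

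*INSR*, the insulin receptor, rose at 3 µM in each of its 4 tested probe sets, though the call of 226450_at held in only 7 of 14 alternatives. The brightest, 213792_s_at, gave signals of 531, 803 and 1197 in SYO-1 at 0, 0.3 and 3 µM. The same doses gave 412, 491 and 952 in Aska-SS, 436, 866 and 1536 in Fuji and 9.09, 111 and 200.4 in Yamato-SS. Signals climbed with each dose in all 4 lines, and the 0 µM value of Yamato-SS lay under the floor, to which it was raised before logs were taken. The log2 change at 3 µM against 0 µM was 2.06 (SE 0.40, n = 4 lines, limma adjusted p = 0.00153), and 1.40 (adjusted p = 0.000301 by the same limma test) without Yamato-SS, over a range of adjusted p of 3.36e-05 to 0.423 in 16 alternatives.

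Probe set 226216_at of *INSR* read 260.4, 383 and 549 in SYO-1, 161, 303 and 477 in Aska-SS, 210.1, 309.5 and 570.1 in Fuji and 57.8, 68.1 and 70.1 in Yamato-SS, again at 0, 0.3 and 3 µM. Its change was 1.09 (SE 0.20, n = 4 lines, limma adjusted p = 0.00105). For 226212_s_at the series were 142, 221 and 355 in SYO-1, 155, 136 and 309 in Aska-SS, 186, 231 and 492 in Fuji and 33.4, 45.9 and 54.8 in Yamato-SS. All 4 lines gained signal at 3 µM, with a change of 1.11 (SE 0.20, n = 4 lines, limma adjusted p = 0.00113). The 3 µM and 0 µM groups overlapped in both probe sets, since Yamato-SS at 3 µM stayed below the other lines at 0 µM. In 226450_at the signals were 236, 306 and 556 in SYO-1, 178, 305 and 397 in Aska-SS, 254, 391 and 585 in Fuji and 53.0, 61.4 and 39.0 in Yamato-SS. Yamato-SS was the exception there, with a change of -0.44 against 1.16 to 1.24 in the other 3 lines, and the mean change was 0.79 (SE 0.26, n = 4 lines, limma adjusted p = 0.0285). This call was lost without the filter (adjusted p = 0.122), with the arrays of the 2 doses alone (0.0674), without variance moderation (0.103) and without the block (0.769), all by limma. It was also lost without Aska-SS, SYO-1 or Fuji (0.67, 0.64 and 0.65, adjusted p = 0.148, 0.146 and 0.148 by limma) and the change was 1.20 without Yamato-SS, with adjusted p-values of 0.000482 to 0.769 over 14 alternatives. The dim probe set 207851_s_at lay between 24.5 and 80.1 on all arrays, with line changes of -0.27 to 0.47.

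*IGF1R*, the receptor tyrosine kinase for IGF ligands, rose at 3 µM in 1 of its 2 tested probe sets. Probe set 225330_at had signals of 819, 1486 and 2351 in SYO-1 at 0, 0.3 and 3 µM, 29.1, 19.5 and 73.6 in Aska-SS, 33.2, 93.4 and 522 in Fuji and 75.6, 137 and 318 in Yamato-SS. It was highest in SYO-1 at each dose, and each line had its own highest value at 3 µM. The change at 3 µM against 0 µM was 2.23 (SE 0.37, n = 4 lines, limma adjusted p = 0.000582), with 3.97 in Fuji, 2.07 in Yamato-SS, 1.52 in SYO-1 and 1.34 in Aska-SS. Without Fuji it was 1.64 (adjusted p = 0.00180 by limma), within 0.000181 to 0.50 over 15 alternatives.

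The second tested probe set of *IGF1R*, 203627_at, read 527, 699.8 and 943 in SYO-1, 8.06, 5.30 and 28.4 in Aska-SS, 34.5, 44.1 and 181 in Fuji and 101, 13.1 and 108 in Yamato-SS. Its change of 1.14 (SE 0.49, n = 4 lines, limma adjusted p = 0.0856) did not pass. The value of Yamato-SS at 0.3 µM stood below both of its neighbours. Without Yamato-SS the change was 1.49 (adjusted p = 0.00855 by limma), within 0.00855 to 0.815 over 13 alternatives. Of the 3 probe sets without a test, 203628_at gave 199, 247 and 371 in SYO-1, 10.7, 41.5 and 97.6 in Yamato-SS and 6.72, 22.7 and 91.6 in Fuji at 0, 0.3 and 3 µM, and stayed under the floor in Aska-SS. Likewise 243358_at gave 41.8, 100.2 and 129.9 in SYO-1, 4.54, 30.1 and 71.5 in Yamato-SS and 6.46, 6.46 and 43.3 in Fuji and did not rise above the floor in Aska-SS. In both, 3 of 4 lines had more signal at 3 µM than at 0 µM. The last, 208441_at, ran the other way, with 55.5, 47.8, 33.7 and 30.6 at 3 µM in SYO-1, Aska-SS, Fuji and Yamato-SS, against 78.4, 42.4, 39.4 and 74.8 at 0 µM.

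*IGF2R* rose at 3 µM in 2 of its 3 probe sets. Probe set 201393_s_at gave 4833, 4787 and 6060.0 in SYO-1 at 0, 0.3 and 3 µM, 4163, 4713 and 5894 in Aska-SS, 4705, 5775 and 7217 in Fuji and 3421, 3809 and 5305 in Yamato-SS. Every signal at 3 µM exceeded every signal at 0 µM, and the change was 0.52 (SE 0.07, n = 4 lines, limma adjusted p = 0.000195), a 1.43-fold difference. In 201392_s_at the signals were 2201, 2366 and 2830.4 in SYO-1, 1629.7, 1976 and 2398 in Aska-SS, 2256, 2603 and 2884 in Fuji and 1435, 1566 and 2379 in Yamato-SS, again with no overlap between 3 µM and 0 µM. Its change was 0.50 (SE 0.09, n = 4 lines, limma adjusted p = 0.00109). These were the 2 of 14 tested probe sets whose groups did not overlap, a share near the 10.9% of all probe sets tested. Both calls were lost with median centring, where the changes were 0.20 and 0.26 (adjusted p = 0.115 and 0.0543 by limma). Over the alternatives their adjusted p-values ran from 0.000164 to 0.120 and from 0.000908 to 0.229.

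The third *IGF2R* probe set, 1569052_at, did not pass. It read 116, 105 and 136 in SYO-1, 108, 75.5 and 108 in Aska-SS, 92.5, 63.3 and 105 in Fuji and 187, 132 and 169 in Yamato-SS. The lowest value of each line fell at 0.3 µM, and the change at 3 µM against 0 µM was 0.07 (SE 0.20, n = 4 lines, limma adjusted p = 0.813), with a 95% interval of -0.36 to 0.49.

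*IRS1*, the adaptor first described as a substrate of the insulin receptor kinase, rose at 3 µM in its 3 probe sets, with a call that held in 14 of 16 alternatives for 204686_at, 9 of 14 for 242979_at and 4 of 13 for 238933_at. Probe set 204686_at had signals of 4361, 5353 and 7399 in SYO-1 at 0, 0.3 and 3 µM, 2453, 3223 and 5219.9 in Aska-SS, 69.9, 63.3 and 118 in Fuji and 561, 622 and 580.4 in Yamato-SS. SYO-1 stood at the top and Fuji at the bottom at each dose. The change was 0.67 (SE 0.16, n = 4 lines, limma adjusted p = 0.00551), with 0.05 in Yamato-SS, 0.76 in SYO-1, 0.76 in Fuji and 1.09 in Aska-SS. In 242979_at the series were 1634, 2141 and 3676 in SYO-1, 684, 1000.0 and 1266 in Aska-SS, 21.5, 4.54 and 39.3 in Fuji and 145, 221 and 207 in Yamato-SS. All 4 lines were higher at 3 µM than at 0 µM, with a change of 0.86 (SE 0.24, n = 4 lines, limma adjusted p = 0.0139). For 238933_at the signals were 289.6, 372 and 556 in SYO-1, 316, 447 and 631 in Aska-SS, 7.56, 31.3 and 29.0 in Fuji and 89.7, 90.2 and 85 in Yamato-SS. Yamato-SS was flat across doses, and the change was 0.78 (SE 0.25, n = 4 lines, limma adjusted p = 0.0246). The 0 µM value of Fuji lay under the floor, so its change of 1.26, the largest of the 4 lines, was measured from there.

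Some *IRS1* calls were lost when 1 line was left out. Without Aska-SS none of the 3 passed (0.52, 0.85 and 0.71, adjusted p = 0.0618, 0.0627 and 0.147 by limma). Leaving out SYO-1 ended the call for 242979_at (0.76, adjusted p = 0.107 by limma) and for 238933_at (0.73, adjusted p = 0.123 by limma), and leaving out Fuji that for 238933_at (0.62, adjusted p = 0.0527 by limma). The call of 238933_at was also lost without the filter (adjusted p = 0.0836), with a floor at the 40th percentile (0.0858), with the arrays of the 2 doses alone (0.0534), without variance moderation (0.0657) and with array weights (0.0544), all by limma. That of 242979_at was lost without the filter (adjusted p = 0.0838) and without variance moderation (0.0764), and without the block none of the 3 passed. Over the alternatives the adjusted p-values of 204686_at, 242979_at and 238933_at ran from 0.00104 to 0.936, from 0.00245 to 0.914 and from 0.00670 to 0.872.

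*IRS2*, the other adaptor, rose at 3 µM in both probe sets, from very unequal levels among lines. Probe set 209185_s_at gave 261, 570.3 and 1521 in SYO-1 at 0, 0.3 and 3 µM, 16017, 17352 and 19006 in Aska-SS, 901, 1389 and 4817 in Fuji and 185, 182 and 320.4 in Yamato-SS. Aska-SS, which was high without drug, changed by 0.25, against 2.54 in SYO-1, 2.42 in Fuji and 0.79 in Yamato-SS. The mean change corresponded to 2.83-fold (SE 0.31 on the log2 scale, n = 4 lines, limma adjusted p = 0.00210). In 209184_s_at the signals were 308, 275 and 530.0 in SYO-1, 6300.3, 7701 and 9229.8 in Aska-SS, 502, 598 and 2026 in Fuji and 159.6, 116 and 233 in Yamato-SS. Fuji had a change of 2.01, and Aska-SS, SYO-1 and Yamato-SS 0.55 to 0.78. The mean change was 0.97 (SE 0.22, n = 4 lines, limma adjusted p = 0.00410), and 0.63 (adjusted p = 0.0135 by limma) without Fuji, within 0.00229 to 0.857 over 14 alternatives. *IRS2* is the member whose promoter held the CAAAACA match printed above, a motif in 4.92% of all promoters. A link between the match and the change was not tested.

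**Figure D2:**
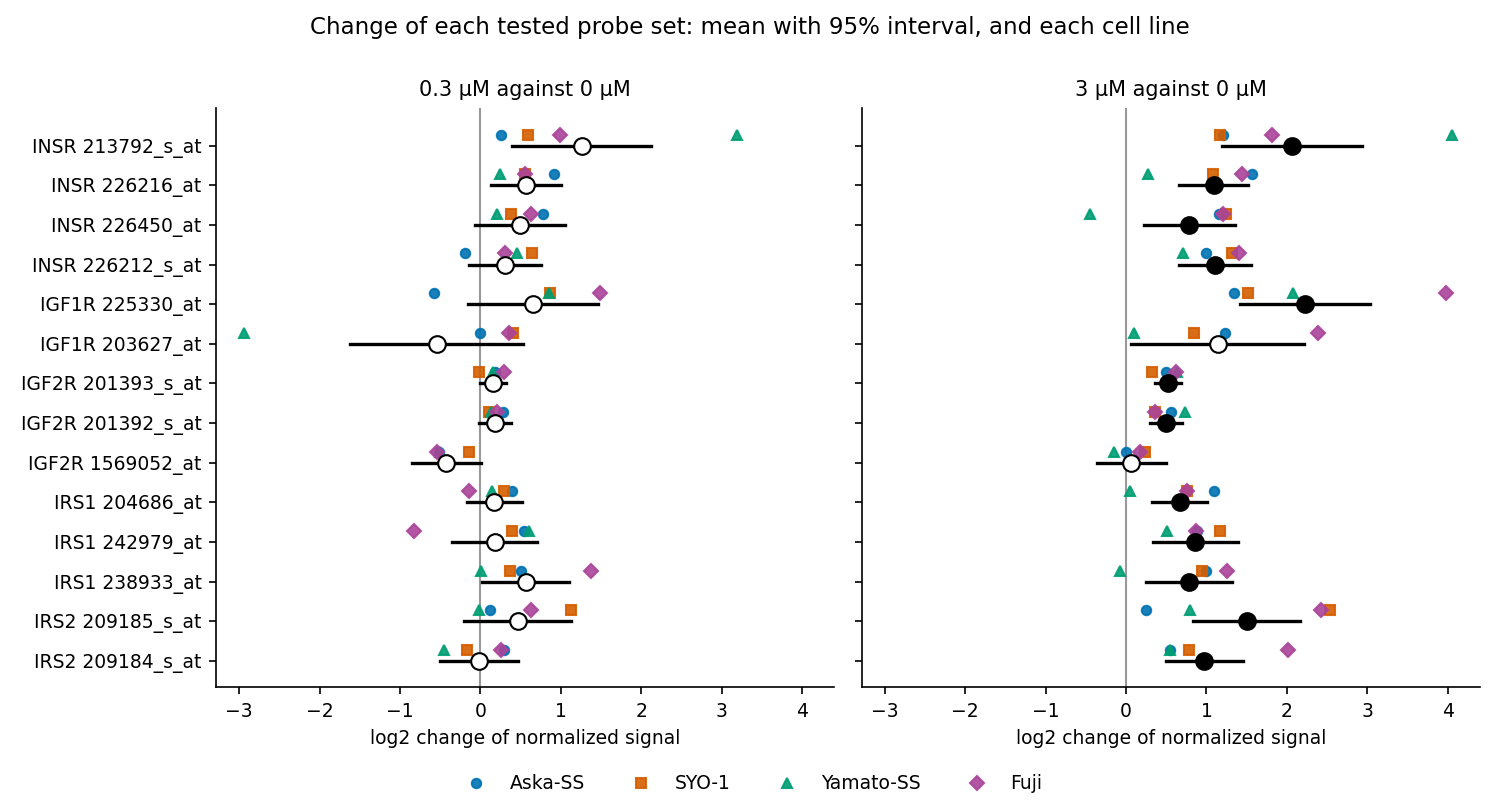
Log2 change of each tested probe set at 0.3 µM against 0 µM (left) and at 3 µM against 0 µM (right). Large circles are the limma means with bars for the 95% intervals, filled where the adjusted p was below 0.05, and the small markers above them are the 4 cell lines. The panel for 3 µM has 12 filled circles of 14, and that for 0.3 µM has none.

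At the lower dose no member passed. Of the 14 probe sets 0 passed at 0.3 µM against 0 µM by limma, where 5.32% of all probe sets did, 3.08% higher and 2.24% lower, and 3 members had an unadjusted p below 0.05. The same counts of 0 and 3 came from the fit without variance moderation. The median change of the members was 0.24. Nearest to the threshold was *INSR* 213792_s_at with 1.26 (SE 0.40, n = 4 lines, limma adjusted p = 0.0822), which passed in 4 of 16 alternatives. These were a floor at the 40th percentile (0.80, adjusted p = 0.0265 by limma), an offset of 16 in place of a floor (1.03, adjusted p = 0.0484 by limma), array weights (1.12, adjusted p = 0.0481 by limma) and the mean of the *INSR* probe sets (0.66, adjusted p = 0.0309 by limma). The change was positive in 4 of 4 lines, with 3.19 in Yamato-SS, measured from the floor, and 0.25 to 0.99 in the other lines. Next came *INSR* 226216_at with 0.57 (SE 0.20, n = 4 lines, limma adjusted p = 0.107). The *IGF2R* probe set 1569052_at was lower in 4 of 4 lines with a change of -0.42 (SE 0.20, n = 4 lines, limma adjusted p = 0.208). For *IGF1R* 225330_at the change was 0.66 (SE 0.37, n = 4 lines, limma adjusted p = 0.302), with -0.58 in Aska-SS and 0.86 to 1.49 in the other lines. In *IRS2* 209185_s_at it was 0.46 (SE 0.31, n = 4 lines, limma adjusted p = 0.385), with 1.13 in SYO-1 and -0.02 in Yamato-SS.

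Between the doses, 7 of the 14 probe sets rose at 3 µM against 0.3 µM, 0 fell and 7 did not pass, with a median change of 0.60. Over all probe sets 11.5% passed, 4.98% higher and 6.53% lower. The 7 were both tested probe sets of *IGF1R*, both of *IRS2*, 201393_s_at and 201392_s_at of *IGF2R*, and 226212_s_at of *INSR*. *IGF1R* 225330_at changed by 1.57 (SE 0.37, n = 4 lines, limma adjusted p = 0.0196) and 203627_at by 1.68 (SE 0.49, n = 4 lines, limma adjusted p = 0.0460). The call of 225330_at held in 9 of 15 alternatives. That of 203627_at held in 5 of 13 and was lost whichever line was left out. In 203627_at, Yamato-SS changed by 3.04 from its low signal of 13.1 at 0.3 µM, and the other lines by 0.43 to 2.04. The 0.3 µM signal of Aska-SS lay under the floor there. *IRS2* 209184_s_at changed by 0.99 (SE 0.22, n = 4 lines, limma adjusted p = 0.0152) and 209185_s_at by 1.04 (SE 0.31, n = 4 lines, limma adjusted p = 0.0463). The step of *IGF2R* 201393_s_at was 0.37 (SE 0.07, n = 4 lines, limma adjusted p = 0.00981), the one with the smallest adjusted p. *IRS1* had none among the 7, and its brightest probe set changed by 0.49 (SE 0.16, n = 4 lines, limma adjusted p = 0.0654). Leaving out SYO-1 gave a count of 1, leaving out Aska-SS 2, Fuji 4 and Yamato-SS 4. The comparisons share their 3 µM or 0 µM arrays, so the calls of one are not independent of those of another.

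**Figure D3:**
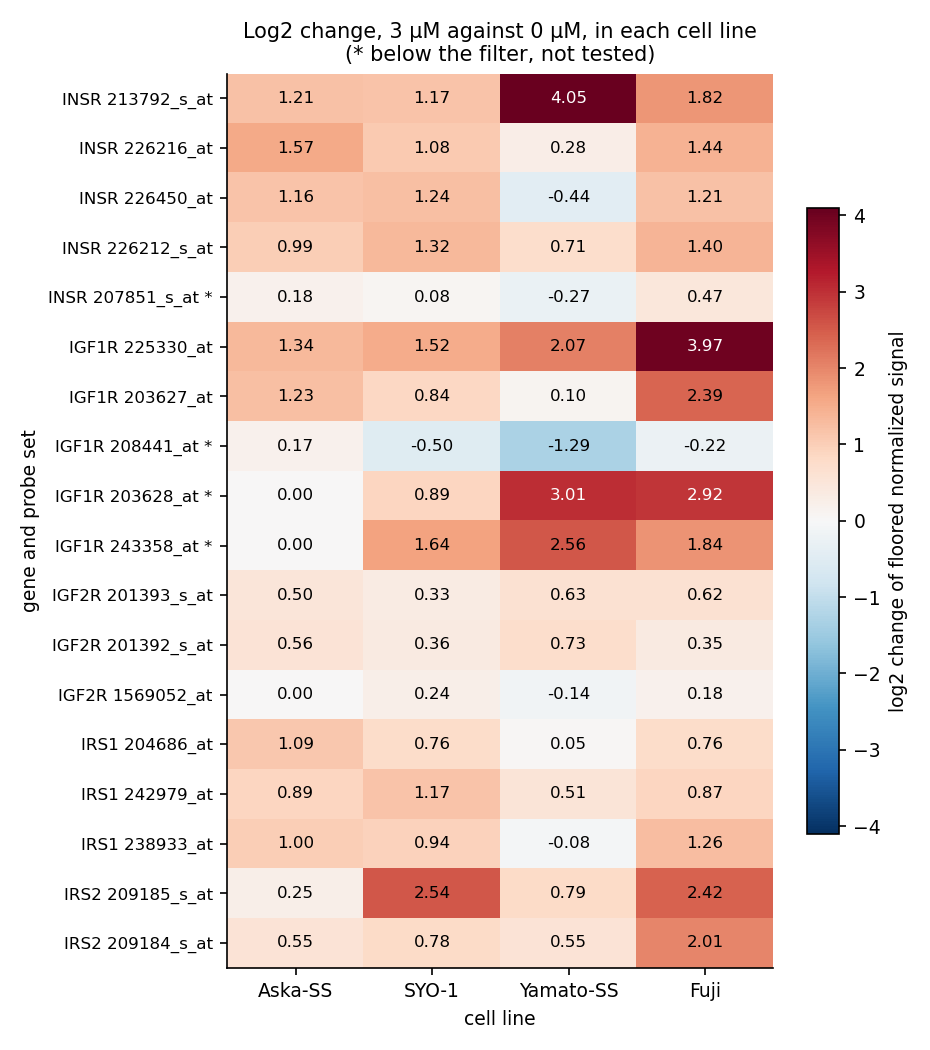
Log2 change at 3 µM against 0 µM for each of the 18 probe sets (rows) in each cell line (columns), with 1 array per dose, on a colour scale from blue (lower at 3 µM) to red (higher). Asterisks mark the 4 probe sets below the filter. Yamato-SS holds both a change of 4.05, in *INSR* 213792_s_at, and one of -0.44, in *INSR* 226450_at.

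The 4 lines began from different levels, and the order of the lines was not the same for all genes. At 0 µM *INSR* was lowest in Yamato-SS in its 4 tested probe sets, by 4.51-fold to 43.9-fold below the highest line, the larger value being taken from the floor. *IGF1R* 225330_at ran from SYO-1 through Yamato-SS and Fuji to Aska-SS over 28.2-fold. *IRS1* 204686_at ran from SYO-1 through Aska-SS and Yamato-SS to Fuji over 62.4-fold. The order for *IRS2* 209185_s_at was Aska-SS, Fuji, SYO-1 and Yamato-SS over 86.7-fold. *IGF2R* 201393_s_at varied by 1.41-fold, in the order SYO-1, Fuji, Aska-SS and Yamato-SS, which *INSR* 213792_s_at shared. With 1 array per line at 0 µM, neighbours in these orders had no test.

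As a share of the sum of squares of log2 signal over the 12 arrays, cell line took 98.0% and dose 1.35% in *IRS1* 204686_at, and 90.5% and 6.51% in *IRS2* 209185_s_at. *IGF1R* 225330_at had 77.1% for line and 18.0% for dose, and *INSR* 213792_s_at 69.5% and 21.5%. *IGF2R* 201393_s_at was the one probe set of the 14 in which dose, with 56.6%, took more than line, with 39.3%.

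**Figure D4:**
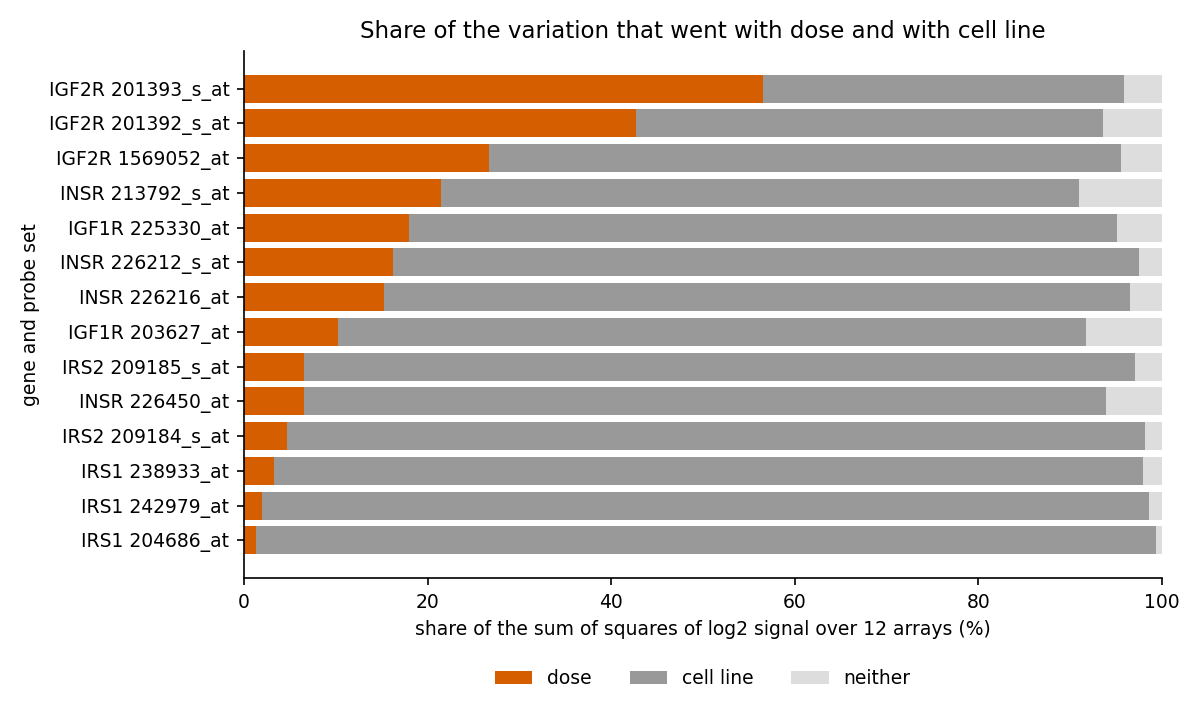
Share of the sum of squares of log2 signal over 12 arrays that went with dose, with cell line and with neither (percent, stacked bars) for the 14 tested probe sets. Dose takes 56.6% in *IGF2R* 201393_s_at at the top and 1.35% in *IRS1* 204686_at at the bottom.

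Tested probe sets of 1 gene mostly followed each other across arrays, while 2 of the dim ones did not. After the mean of each line was removed, the Pearson r over the 12 arrays was 0.95 for *IGF2R* 201393_s_at and 201392_s_at, 0.86 for the 2 probe sets of *IRS2*, and 0.38 to 0.89 for the 3 pairs of *IRS1*. The 6 pairs of tested *INSR* probe sets gave 0.35 to 0.90, the lowest between 213792_s_at and 226450_at. *IGF2R* 1569052_at reached 0.24 and 0.15 with the other *IGF2R* probe sets. Of the probe sets below the filter, *INSR* 207851_s_at gave -0.12 to 0.23 with the other *INSR* probe sets. *IGF1R* 208441_at gave -0.73 to -0.47 with the other *IGF1R* probe sets, whose r with each other was 0.38 to 0.93. These are descriptions, since the 12 arrays share 4 lines and 3 doses.

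Between genes, the brightest probe sets had line-centred r of 0.48 (*INSR* with *IRS1*) to 0.89 (*IGF1R* with *IGF2R*). Without centring the same pairs spread from -0.42 (*IGF1R* with *IRS2*) to 0.83 (*INSR* with *IGF2R*). The genes with the pattern most like each member, by line-centred r over the same 12 arrays, were *PAIP2* (0.98), *TLCD2* (0.98) and *ZSCAN18* (0.97) for *INSR*, and *RILPL1* (0.98), *ZNF568* (0.98) and *MTMR10* (0.97) for *IGF1R*. For *IGF2R* they were *SNX6* (0.99), *CCDC28A* (0.99) and *WASHC4* (0.99). *MTR* (0.97), *KRABD4* (0.96) and *CBLL1* (0.95) led for *IRS1*, and *PPIL3* (0.98), *RAD50* (0.97) and *EFCAB7* (0.96) for *IRS2*. They were picked as the highest of 12132 genes, so their r has no test.

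Genes that act beside the members moved in both directions at 3 µM against 0 µM. Over the 6 lists 32 of 63 tested genes passed (50.8%), near the 43.4% of all 12132 genes that did by their brightest probe set, 22.5% higher and 21% lower, so the counts below describe the lists and set none of them apart. Of 18 receptor relatives and adaptors 14 were tested, 5 rose, 2 fell and 7 did not pass, with a median log2 change of 0.24. *SOS2*, an exchange factor that activates RAS, changed by 0.90 (SE 0.11, adjusted p = 7.32e-05 by limma). *GAB1*, a docking protein that binds PI3K, changed by 1.18 (SE 0.18, adjusted p = 0.000289 by limma), and *PTPN11*, the phosphatase SHP2, fell by 0.34 on the log2 scale (SE 0.06, adjusted p = 0.000871 by limma). Of 19 genes in a list of negative regulators and binding partners, 18 were tested, 7 rose, 2 fell and 9 did not pass, with a median of 0.17. The counts of this list were 7 higher and 0 lower without quantile normalization, and 5 higher and 3 lower with median centring (median 0.03). *PTPN2*, a tyrosine phosphatase, changed by 0.77, *GIGYF1*, a binding partner of the adaptor GRB10, by 0.78 and *CBLB*, a ubiquitin ligase, by 0.78. The ligand list held only *IGF1* and *INS*, and *IGF2* was not taken. *IGF1* did not pass (0.15, SE 0.41, adjusted p = 0.799 by limma) and *INS* lay below the filter.

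In the list of receptor processing and sorting, 17 of 19 genes were tested, 4 rose, 6 fell and 7 did not pass, with a median of -0.10. *M6PR*, the cation-dependent mannose 6-phosphate receptor, fell by 0.73 on the log2 scale (SE 0.11, adjusted p = 0.000320 by limma), where *IGF2R*, the cation-independent one, rose. *AP1B1*, a subunit of the AP-1 clathrin adaptor, fell by 1.42, and *SNX2*, a retromer sorting nexin, rose by 0.58. With median centring 0 genes of this list rose and 8 fell, and *SNX2* changed by 0.27 (adjusted p = 0.148 by limma). Of the 3 genes that build the mannose 6-phosphate tag, *GNPTG* rose by 0.51 and 2 did not pass, and with median centring *GNPTG* changed by 0.36 (adjusted p = 0.0502 by limma). Of 11 transcription factors known to act on *INSR* or *IRS2*, 10 were tested, 4 rose, 1 fell and 5 did not pass, with a median of 0.24. *FOXO3* changed by 1.47 (SE 0.15, adjusted p = 2.73e-05 by limma), *FOXO1* by 1.34 (SE 0.20, adjusted p = 0.000328 by limma) and *CREB1* by 0.57 (SE 0.09, adjusted p = 0.000372 by limma). *SREBF1*, the gene of the lipogenic factor SREBP-1, which represses *IRS2* in mouse liver, was the 1 that fell, with a change of -1.12 (SE 0.24, adjusted p = 0.00313 by limma) and higher signal in 1 of 4 lines.

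At 0.3 µM, 4 of the 63 tested genes of these lists passed (6.35%), a share near the 6.79% of all genes by their brightest probe set. *SOS2* changed by 0.52 (adjusted p = 0.0249), *FOXO1* by 0.79 (adjusted p = 0.0447) and *FOXO3* by 0.78 (adjusted p = 0.0189), and *M6PR* fell by 0.44 on the log2 scale (adjusted p = 0.0439), all by limma and each in the same direction in 4 of 4 lines.

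**Figure D5:**
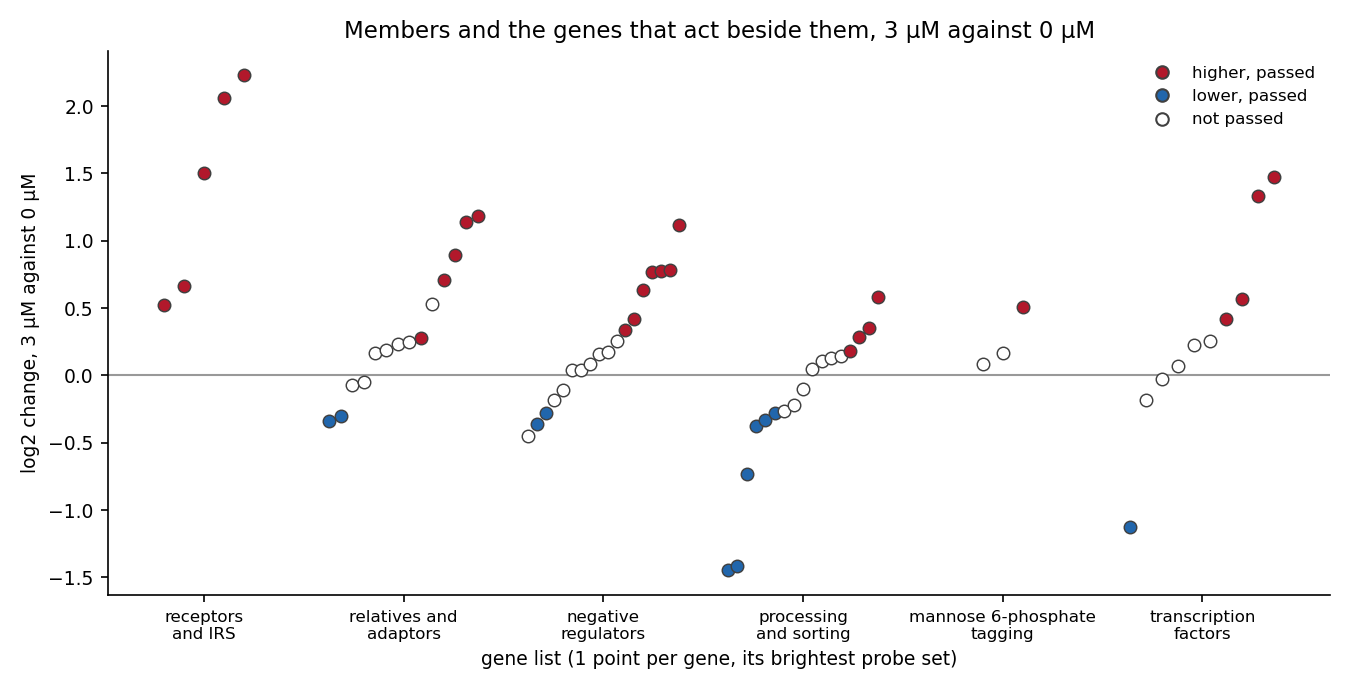
Log2 change at 3 µM against 0 µM, with 1 point per gene from its brightest probe set, for the 5 members (left) and 5 lists of genes that act beside them. Red points rose, blue points fell and open points did not pass the limma test. The 5 members are all red, at 0.52 to 2.23, while the sorting list holds 6 blue and 4 red points.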

How the data were processed

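Values were read from 12 arrays, 1 for each of 4 cell lines at 3 doses. Per the labels, the authors used MAS5 (version not given in the sources used here) to make the deposited signal intensities, which are linear and share a 2% trimmed mean of 500.1 on every array. The authors' methods name quantile normalization in GeneSpring, but the deposited columns have different distributions, so quantile normalization was applied here, in R 4.3.3 with limma 3.58.1. A floor was set at the 20th percentile of all normalized signals (12.1), log2 was taken, and the 62 control probe sets were left out. The 27306 probe sets with a mean above the median were fitted with dose as a factor and cell line as a block (lmFit and eBayes with a trend), and p-values of each of the 3 comparisons were adjusted over all of them with a threshold of 0.05. Because the spread was pooled over doses, *INSR* 213792_s_at had an SE of 0.40 in each comparison. The standard deviation of its 4 line changes was 1.36 at 3 µM against 0 µM. It was 1.33 at 0.3 µM against 0 µM and 0.16 at 3 µM against 0.3 µM. The fit was tested on simulated data.

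A replicate number stands for 1 cell line, which pairs the arrays. Deviations from the dose means correlated at 0.79 to 0.91 between arrays of 1 line and at -0.42 to -0.10 between arrays that differ in line and dose.

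Of 54675 probe sets, 41097 have 1 gene symbol, 1801 have several and 11777 are unnamed in the annotation used here, and 0 symbols were updated. Levels were compared within a probe set only. Every member probe set is named, and the brightest past the filter stands for a gene. Of each list the 3 genes with the smallest adjusted p that passed are named, and for each member the 3 genes with the highest line-centred r. The members and lists were chosen with earlier results of these data known. Alternatives changed the normalization, the floor, the filter, the summary per gene, the block, the arrays fitted, the moderation or weights, or left out 1 line. Some items are not reported here.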

Additional observations from a re-analysis of the deposited data

Results flagged for a closer look

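In 84 groups of 4 lines (the log2 levels at each dose and the log2 changes of the tested probe sets) the gap between the farthest line and its nearest neighbour was set against the range of the group. This share was above Dixon's 95% critical value for 4 values in 12 groups, where chance alone gives about 1 in 20 for separate groups. These groups are not independent, since levels and changes come from the same 12 arrays and several probe sets belong to 1 gene, and 6 of the 12 are low *INSR* levels in Yamato-SS. Yamato-SS was the low line in the levels of *INSR* 213792_s_at at 0 µM (0.933 of the range), 226216_at at 0.3 µM (0.864) and 3 µM (0.915), 226450_at at 0.3 µM (0.865) and 3 µM (0.857), and 226212_s_at at 0 µM (0.843). It was also far from the other lines in the change of *INSR* 226450_at at 3 µM against 0 µM (0.952), of *IGF1R* 203627_at at 0.3 µM against 0 µM (0.878) and of *IGF2R* 201393_s_at at 3 µM against 0.3 µM (0.881). SYO-1 stood apart in the change of *IGF2R* 1569052_at at 0.3 µM against 0 µM (0.897), Fuji in that of *IRS1* 242979_at at 0.3 µM against 0 µM (0.850) and in that of *IRS2* 209184_s_at at 3 µM against 0 µM (0.840).

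The 4 lines had changes of both signs in 15 of 42 changes of the tested probe sets. In 3 of them a line moved by more than 0.5 on the log2 scale each way, and these differences were not tested, since each line had 1 array per dose. *INSR* 226450_at changed at 3 µM against 0.3 µM by -0.65 in Yamato-SS and by 0.86 in SYO-1. *IGF1R* 225330_at changed at 0.3 µM against 0 µM by -0.58 in Aska-SS and by 1.49 in Fuji. *IRS1* 242979_at changed at 0.3 µM against 0 µM by -0.83 in Fuji and by 0.60 in Yamato-SS. The Fuji signal at 0.3 µM lay under the floor, so the size of its change was set by the floor.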

How the results depend on the processing

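The count of member probe sets that passed at 3 µM against 0 µM was 12 of 14 and at 3 µM against 0.3 µM 7 of 14, and none of them was lower in any alternative. At 3 µM against 0 µM it was 9 of 18 without the filter and 9 of 14 without variance moderation. Without the replicate block, which pairs the arrays by line, 0 members passed in each of the 3 comparisons by limma (2 had an unadjusted p below 0.05 at 3 µM against 0 µM, 1 at 3 µM against 0.3 µM and 0 at 0.3 µM against 0 µM), and 582 of all probe sets passed at 3 µM against 0 µM. With 1 value per gene, 5 of 5 genes passed at 3 µM against 0 µM by the brightest probe set and by the mean of probe sets, 3 and 4 at 3 µM against 0.3 µM, and 0 and 1 at 0.3 µM against 0 µM. At 3 µM against 0.3 µM the count was 4 with median centring, 1 of 18 without the filter, 2 without variance moderation and 5 of 9 with the filter at the 65th percentile. At 0.3 µM against 0 µM it was 1 with an offset of 16, 1 with a floor at the 40th percentile and 2 with array weights. Leaving out 1 line gave 8 to 13, 1 to 4 and 0 to 0 in the 3 comparisons, in the order 3 µM against 0 µM, 3 µM against 0.3 µM and 0.3 µM against 0 µM. Over the changes of single member probe sets, 502 alternatives kept direction and side of the threshold, 76 fell short of it, 19 newly passed and 6 changed sign. The 6 were all at 0.3 µM against 0 µM: *IRS2* 209184_s_at became 0.024 without quantile normalization, 0.028 without SYO-1 and 0.13 without Yamato-SS, *IGF2R* 201393_s_at became -0.026 with median centring and the mean of *IGF2R* probe sets was -0.031, and *IGF1R* 203627_at became 0.25 without Yamato-SS. The cause was not tested. Of the 14 list genes named, 12 kept direction and call under both other scalings, a check chosen after seeing the data, and *SNX2* and *GNPTG* lost the call with median centring. Signals near the floor limit what can be read from *IGF1R* in Aska-SS and from *IRS1* 242979_at and 238933_at in Fuji.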
